A study of Mus musculus with 9 samples.

Results

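Endothelial cells line every blood vessel, and skeletal muscle is threaded by a dense bed of capillaries. Their identity rests on junction proteins that seal neighbouring cells, receptors for vascular growth factors, and transcription factors of the ETS family. When tissue is inflamed, endothelial cells display selectins, which slow passing leukocytes, and then ICAM-1 and VCAM-1, which leukocyte integrins grip before the cells leave the blood. The 10 genes described here were taken by symbol from the 55401 genes of each count table, 7 for endothelial identity (Pecam1, Cdh5, Kdr, Tek, Erg, Aplnr and Fabp4) and 3 for leukocyte adhesion (Vcam1, Icam1 and Selp). All 10 had counts in every library and passed the filter on low counts.

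The tissue was the calf muscle gastrocnemius of FVB mice (wild type, age 2 to 3 months), taken 7 weeks after an injection into it. The injection was saline, AAV-GFP (an adeno-associated virus vector for a green fluorescent protein) or AAV-GFP-MBNL1∆ (the same kind of vector with MBNL1∆, a decoy built from the RNA-binding protein MBNL1). Each group held 3 libraries, and the comparisons set either vector against saline and one vector against the other. Serotype, dose and promoter of the vectors are not given in the labels, which also do not say whether each library is a separate animal, so the p-values rest on differences among libraries that may be technical.

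Counts in genes ranged from 44603618 to 76970849 per library, lowest in AAV-GFP 3. Markers of muscle fibres such as Ckm were abundant in all 9 libraries, at 9353 to 19645 CPM (the count relative to the TMM-scaled library total). AAV-GFP 2 stood apart: its 10 most abundant genes took 17.7% of counts, and those of the other libraries 23.6% to 27.7%. The AAV-GFP-MBNL1∆ libraries had Xist at 0.0182 to 0.0902 CPM and Ddx3y at 82.7 to 84.6 CPM, the pattern of males. Saline and AAV-GFP had Xist at 105 to 136 CPM and Ddx3y at 0.409 to 0.693 CPM, except that AAV-GFP 1 had Ddx3y at 2.58 CPM and, alone of these 6, the Y-linked Eif2s3y above 0, at 1.11 CPM. In any comparison with AAV-GFP-MBNL1∆, sex and vector cannot be told apart. The 10 leukocyte markers of a fixed list summed to 12.3 to 17.8 CPM in saline, to 99.8, 330.2 and 33.2 CPM in AAV-GFP 1, 2 and 3, and to 41.0, 36.3 and 23.7 CPM in AAV-GFP-MBNL1∆ 1, 2 and 3.

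In saline muscle the identity genes were well above the adhesion genes on a scale of CPM per kilobase of the principal coding transcript. Fabp4, a fatty acid carrier of capillary endothelium and of adipocytes, stood highest at 232 ± 13.9 (mean ± SD, n = 3, as for all such values). It was followed by the junction genes Pecam1 at 35.1 ± 0.407 and Cdh5 at 26.4 ± 0.355, and by the receptor genes Kdr at 13.4 ± 2.88 and Tek at 10.3 ± 0.94. Aplnr was at 6.67 ± 0.768 and Erg at 4.42 ± 0.242. Icam1 at 2.62 ± 0.385, Vcam1 at 1.62 ± 0.18 and Selp at 0.975 ± 0.0715 closed the order. Kdr and Tek were the only neighbours in that order whose saline libraries overlapped. In AAV-GFP-MBNL1∆ the same measure put Aplnr at 2.22 ± 0.302, in place 9 of 10 instead of 6, with libraries that overlapped those of Vcam1 and Selp. In AAV-GFP it put Icam1 at 10.1 ± 7.48, in place 5 instead of 8, with libraries that overlapped those of Kdr and Tek.

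**Figure D1:**
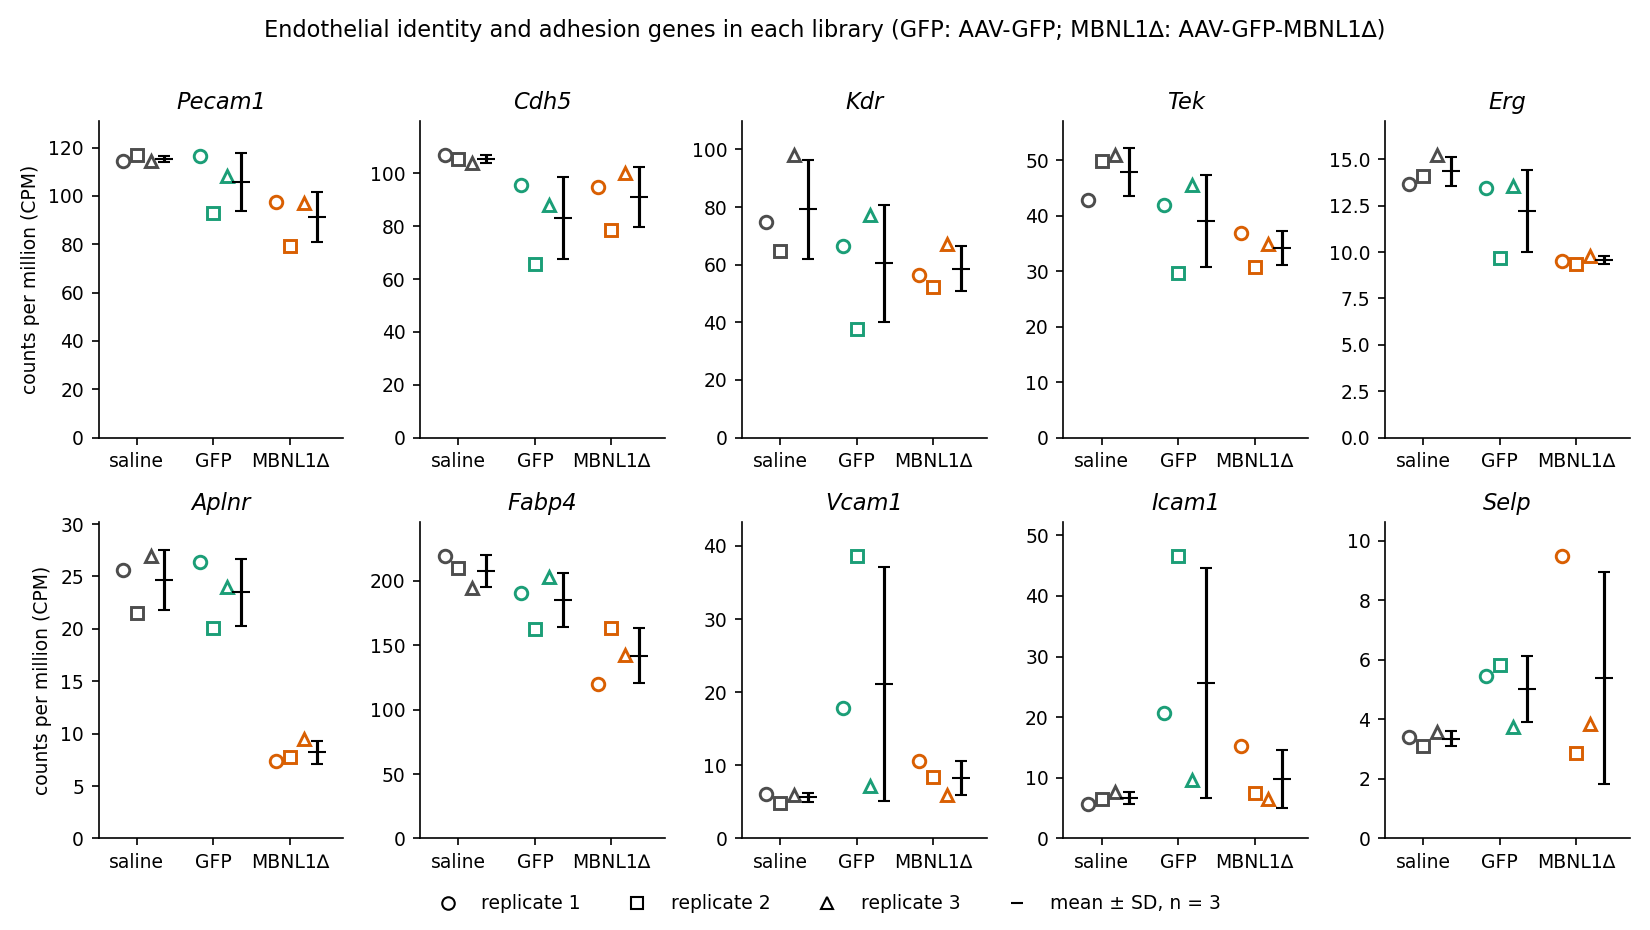
Level of each of the 10 genes in CPM (y axis, from 0) in the 9 libraries, grouped by injection on the x axis. Symbols mark replicates 1 to 3 and black bars the mean ± SD of 3 libraries. Aplnr lies at 7.43 to 9.5 CPM in the 3 AAV-GFP-MBNL1∆ libraries and at 20.1 to 26.9 CPM in the other 6, and Vcam1 and Icam1 are highest in AAV-GFP 2.

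Promoter sequences are shown for 2 adhesion and 2 identity genes whose values differed in pattern. RefSeq windows of the GRCm38.p6 assembly matched 5 of the 10 genes (Icam1, Selp, Kdr, Tek and Erg), and the 250 bases before the annotated start are given 5′ to 3′ on the gene's strand. Capitals mark matches on either strand to the NF-κB consensus, to a palindromic NF-κB form (GGAANTTCC), to the interferon-stimulated response element and to 2 ETS motifs (AGGAAG and CCGGAA). The GC box (GGGCGG) and the TATA box (TATAAA) were also searched and are left in lower case. The windows are chr9:21015690-21015939 for Icam1 and chr1:164115014-164115263 for Selp, both on the plus strand, chr5:75978456-75978705 on the minus strand for Kdr, and chr4:94739039-94739288 on the plus strand for Tek.
Icam1: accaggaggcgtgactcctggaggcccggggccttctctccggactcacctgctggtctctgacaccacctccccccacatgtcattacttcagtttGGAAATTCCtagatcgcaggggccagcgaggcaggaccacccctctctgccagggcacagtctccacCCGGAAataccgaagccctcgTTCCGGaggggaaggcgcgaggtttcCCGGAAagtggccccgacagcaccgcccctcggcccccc
Selp: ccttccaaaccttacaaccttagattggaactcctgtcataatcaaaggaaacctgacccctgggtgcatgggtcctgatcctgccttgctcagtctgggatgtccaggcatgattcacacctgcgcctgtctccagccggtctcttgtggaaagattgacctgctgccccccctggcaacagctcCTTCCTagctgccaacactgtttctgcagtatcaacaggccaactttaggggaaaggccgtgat
Kdr: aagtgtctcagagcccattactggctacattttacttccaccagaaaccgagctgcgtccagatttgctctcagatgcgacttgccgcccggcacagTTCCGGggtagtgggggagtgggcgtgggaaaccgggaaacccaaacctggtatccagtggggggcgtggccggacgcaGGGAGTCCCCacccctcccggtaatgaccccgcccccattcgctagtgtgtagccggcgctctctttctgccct
Tek: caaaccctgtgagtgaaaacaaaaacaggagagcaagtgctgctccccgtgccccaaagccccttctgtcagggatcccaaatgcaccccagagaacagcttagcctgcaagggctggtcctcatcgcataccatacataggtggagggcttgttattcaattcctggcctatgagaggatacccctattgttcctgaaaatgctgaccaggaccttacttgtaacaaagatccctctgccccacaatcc

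The Icam1 window held GGAAATTCC, the palindromic NF-κB form, at bases −153 to −145 from the start, a form present in 0.813% of 32851 windows of the same length. It also held 3 copies of CCGGAA on either strand, the last of them at −39 to −34 (12% of windows have at least one). A GC box lay at −17 to −12 (32.7% of windows have one). The Selp window held 1 ETS motif (CTTCCT on the strand shown, at −64 to −59, in 29.5% of windows) and no match to the other 6 motifs. The Kdr window held 1 match to the NF-κB consensus at −74 to −65 (3.9% of windows), 1 CCGGAA on the reverse strand and 2 GC boxes, and the Tek window held none of the 7. These are matches of letters in a window of fixed length.

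Aplnr showed the clearest difference of the 10. It codes for the receptor of apelin, a G protein-coupled receptor of sprouting and venous endothelium (chromosome 2, 85136225 to 85139923 in mm10, plus strand). Its level was 25.6, 21.5 and 26.9 CPM in saline 1, 2 and 3, 26.4, 20.1 and 24 CPM in AAV-GFP 1, 2 and 3, and 7.43, 7.73 and 9.5 CPM in AAV-GFP-MBNL1∆ 1, 2 and 3. The AAV-GFP-MBNL1∆ libraries all lay below the other 6, and saline and AAV-GFP overlapped. Aplnr fell by 1.58 on the log2 scale in AAV-GFP-MBNL1∆ against saline (SE 0.14, adjusted p = 0.00065), which is 0.333 of the saline level with a 95% interval of 0.266 to 0.417. It fell by 1.51 against AAV-GFP (SE 0.14, adjusted p = 0.000757). AAV-GFP and saline differed by −0.07 (SE 0.14, adjusted p = 0.769), with an interval of −0.39 to 0.24. Both falls passed in each of 17 alternative analyses, with adjusted p up to 0.0064 against saline and 0.00811 against AAV-GFP.

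Apln, the gene for the peptide that Aplnr binds, is set beside its receptor here after its values were seen. It stood at 2.41, 2.8 and 3.04 CPM in saline, 2.34, 1.67 and 2.68 CPM in AAV-GFP, and 0.722, 1.29 and 2.05 CPM in AAV-GFP-MBNL1∆. The AAV-GFP-MBNL1∆ libraries lay below the saline ones, with a log2 difference of −1.02 (SE 0.34) that did not pass (adjusted p = 0.0982). Apela, for the other known ligand of this receptor, was listed at 0 in every library, and 29.6% of its annotated exon bases are shared with another gene. The 2 genes with the profile closest to that of Aplnr over the 9 libraries were Fat3, a protocadherin, and Kctd12b, at root mean square differences of 0.167 and 0.177 in centred log2 CPM.

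Erg is an ETS transcription factor that maintains endothelial identity (chromosome 16, 95359169 to 95586593, minus strand). It was at 13.7, 14.1 and 15.2 CPM in saline, 13.5, 9.67 and 13.5 CPM in AAV-GFP, and 9.52, 9.37 and 9.78 CPM in AAV-GFP-MBNL1∆. Both vector groups lay below all saline libraries, and AAV-GFP 2 was at the level of AAV-GFP-MBNL1∆ while AAV-GFP 1 and 3 were not. Those 2, at 13.48 and 13.55 CPM, were just below the lowest saline value of 13.7 CPM. The difference of AAV-GFP from saline did not pass (−0.23, SE 0.13, adjusted p = 0.307). Erg fell by 0.59 on the log2 scale in AAV-GFP-MBNL1∆ against saline (SE 0.13, adjusted p = 0.0279), which is 0.666 of the saline level (95% interval 0.542 to 0.818). The call ended without any 1 saline or any 1 AAV-GFP-MBNL1∆ library (adjusted p from 0.0796 to 0.0995). Against AAV-GFP the difference was −0.35 (SE 0.13, adjusted p = 0.0788, and 0.00354 without AAV-GFP 2). Its closest profiles were Ppm1k and the vascular transcription factor Foxc1, at 0.0457 and 0.0591.

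Fabp4 (chromosome 3, 10204088 to 10208576, minus strand) was at 219, 210 and 195 CPM in saline, 190, 163 and 203 CPM in AAV-GFP, and 120, 163 and 143 CPM in AAV-GFP-MBNL1∆. All AAV-GFP-MBNL1∆ libraries lay below all saline libraries, and AAV-GFP lay between and overlapped both. Fabp4 fell by 0.55 in AAV-GFP-MBNL1∆ against saline (SE 0.13, adjusted p = 0.0373), to 0.683 of the saline level (95% interval 0.552 to 0.843). The call ended without any 1 saline library, without AAV-GFP 1, without AAV-GFP-MBNL1∆ 1 or 3 (adjusted p from 0.065 to 0.135) and with the replicate number as a block (adjusted p = 0.0713). Adipocytes also make Fabp4, and their 7 markers summed to 43.2 to 120 CPM in saline. The sums were 78.8 to 102.1 in AAV-GFP and 14.4 to 46.7 in AAV-GFP-MBNL1∆, with no marker at 0. The defining adipocyte gene Adipoq was at 5.5, 1.05 and 1.32 CPM in AAV-GFP-MBNL1∆ 1, 2 and 3 and at 21.2, 17.8 and 6.59 CPM in saline. Adipoq in AAV-GFP 1, 2 and 3 was at 11.8, 11.8 and 16.5 CPM. Within saline the libraries had the same order for Fabp4 as for Adipoq, and within AAV-GFP-MBNL1∆ they did not. Within AAV-GFP both genes were highest in replicate 3, and Adipoq was nearly equal in replicates 1 and 2. The profiles closest to Fabp4 were Tpd52l1 and Smco4, at 0.0766 and 0.0768. The part of adipocytes in the fall of Fabp4 was not tested.

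The junction genes moved less. Pecam1 codes for CD31, a homophilic adhesion molecule of endothelial junctions, platelets and leukocytes (chromosome 11, 106654217 to 106750628, minus strand). It was at 115, 117 and 114 CPM in saline, 116, 92.9 and 108 CPM in AAV-GFP, and 97.6, 79.2 and 97.1 CPM in AAV-GFP-MBNL1∆. AAV-GFP-MBNL1∆ lay below all saline libraries, with a log2 difference of −0.34 (SE 0.11) that did not pass (adjusted p = 0.0998). It passed without AAV-GFP 2 (0.0161) and in a fit of only the 2 groups (0.0169). Cdh5 codes for VE-cadherin, the cadherin of endothelial adherens junctions (chromosome 8, 104101625 to 104144511, plus strand). It was at 107, 106 and 104 CPM in saline, 95.6, 65.5 and 88.2 CPM in AAV-GFP, and 95, 78.5 and 100.3 CPM in AAV-GFP-MBNL1∆. Both vector groups lay below the narrow saline range, as did 12.4% of all genes for AAV-GFP and 20% for AAV-GFP-MBNL1∆. Neither difference passed, at −0.34 (SE 0.15, adjusted p = 0.216) for AAV-GFP and −0.21 (SE 0.15, adjusted p = 0.41) for AAV-GFP-MBNL1∆. The profiles closest to Pecam1 were Atg2b and Ick, at 0.0427 and 0.056, and those closest to Cdh5 were Zcchc14 and Ubr2, at 0.0401 and 0.0448.

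Kdr codes for VEGF receptor 2, the main signalling receptor for vascular endothelial growth factor (chromosome 5, 75932827 to 75978458, minus strand). It was at 74.9, 64.7 and 98 CPM in saline, 66.4, 37.7 and 77.2 CPM in AAV-GFP, and 56.4, 52.1 and 67.3 CPM in AAV-GFP-MBNL1∆. All 3 groups overlapped, its closest profiles were Grip2 and Ltbp4 (0.107 and 0.108), and the differences from saline were −0.39 for AAV-GFP (SE 0.26, adjusted p = 0.377) and −0.43 for AAV-GFP-MBNL1∆ (SE 0.26, adjusted p = 0.337). Tek codes for TIE2, the receptor of the angiopoietins (chromosome 4, 94739289 to 94874976, plus strand). It was at 42.8, 49.8 and 50.9 CPM in saline, 41.9, 29.6 and 45.5 CPM in AAV-GFP, and 36.9, 30.8 and 34.9 CPM in AAV-GFP-MBNL1∆. AAV-GFP-MBNL1∆ lay below saline by −0.48 (SE 0.16), which did not pass (adjusted p = 0.0858). It passed with DESeq2 (adjusted p = 0.048), in a fit of only the 2 groups (0.00365) and without AAV-GFP 2 (0.00439) or AAV-GFP 3 (0.0499). The 2 profiles closest to that of Tek were the RNA-binding protein gene Qk and the junctional adhesion molecule gene Jam2, at 0.0487 and 0.059.

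As a group, 3 of the 7 identity genes fell in AAV-GFP-MBNL1∆ against saline (Aplnr, Erg and Fabp4) and none rose, where 9.37% of the 18514 genes tested were called, 4.76% higher and 4.6% lower. Their median log2 difference was −0.48, beside 0.02 over all genes tested. The genes were chosen with earlier results of these data known, so these shares describe the 7 and do not test them as a set. In 6 of the 7 the AAV-GFP-MBNL1∆ libraries all lay below saline, beside 20% of all genes, and 42.7% of all genes had groups that did not overlap in either direction. Against AAV-GFP, Aplnr alone fell, where 21.1% of genes were called and 10.3% were called lower. It was also the only one of the 10 whose groups did not overlap there, beside 38.4% of all genes, and the median of the 7 was −0.21 beside −0.06 over all genes. That comparison and the one against saline share the AAV-GFP-MBNL1∆ libraries. In AAV-GFP against saline no identity gene was called by edgeR, DESeq2 or limma-voom, 1 of 7 (Cdh5) was lower at an unadjusted p under 0.05, and the median was −0.23 beside −0.01 over all genes. The background there was 0% called by edgeR, with 2889 genes higher and 1176 lower at an unadjusted p under 0.05. All AAV-GFP libraries lay below saline for 2 of the 7 (Cdh5 and Erg), beside 12.4% of all genes (27.1% in either direction). In bulk muscle, fewer endothelial cells and less of a transcript per cell cannot be told apart.

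Within AAV-GFP, each of the 7 identity genes was lowest in replicate 2. The median of the 7 stood at −0.57 from the saline mean there, against −0.13 and −0.07 in AAV-GFP 1 and 3, and at −0.47, −0.58 and −0.45 in the AAV-GFP-MBNL1∆ libraries. AAV-GFP 2 was also lowest for 22 of 26 other endothelial genes, 8 of 8 pericyte and smooth muscle markers, 6 of 6 muscle fibre markers and 4 of 4 erythroid markers, and highest for 8 of 8 tested leukocyte markers. Other cell types were mixed. It was lowest for 1 and highest for 3 of 6 satellite cell and fibroblast markers. For 4 lymphatic endothelial markers these counts were 2 and 2, and for 7 adipocyte markers 3 and 2. The share over all genes tested was not counted. Since CPM are shares of a library, the part of these other transcripts in the low values of AAV-GFP 2 was not tested.

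**Figure D2:**
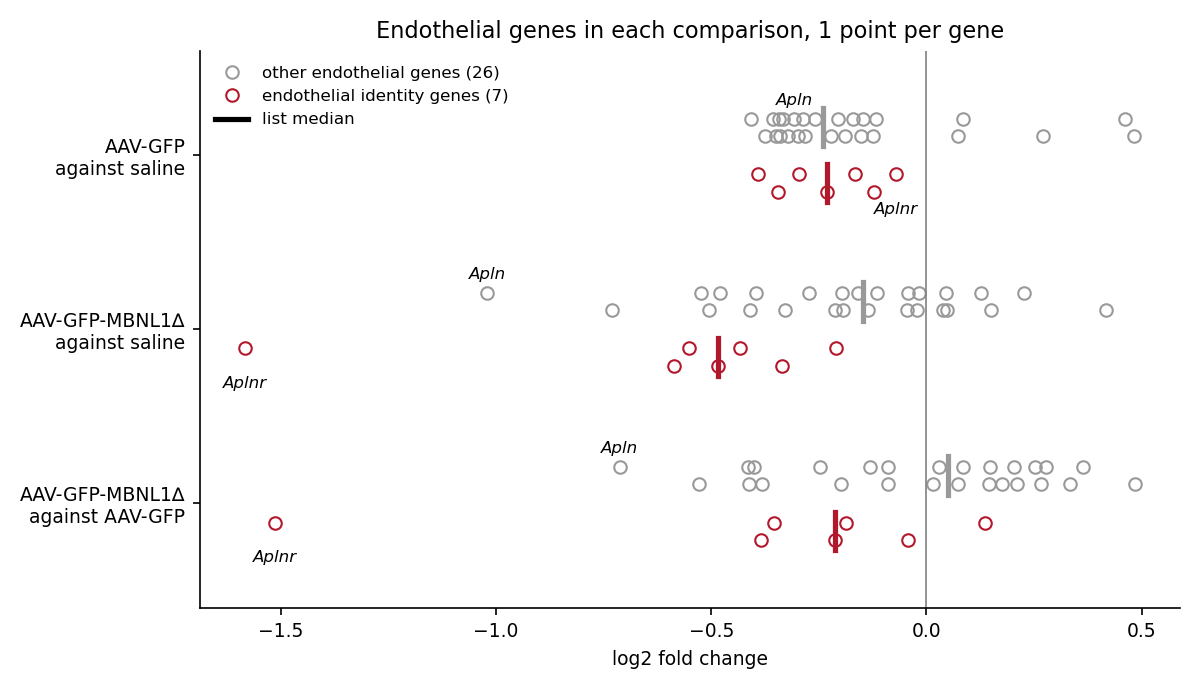
Log2 fold change (x axis) of the 7 endothelial identity genes (red) and 26 other endothelial genes (grey) in each of 3 comparisons (y axis), 1 circle per gene, with the list median as a bar. Aplnr lies at −1.58 and −1.51 in the comparisons with AAV-GFP-MBNL1∆, outside the range of the 26 other genes.

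The 26 other endothelial genes, a list that holds junction, receptor, arterial and venous genes, were all tested. In AAV-GFP-MBNL1∆ against saline none was called by edgeR, with 1 higher and 7 lower at an unadjusted p under 0.05, a median of −0.15 and a range of −1.02 (Apln) to 0.42. Of all 18514 genes tested, 9.37% were called there, with 2423 higher and 2394 lower at that unadjusted p. All AAV-GFP-MBNL1∆ libraries lay below all saline libraries for 12 of the 26 and above them for 0, beside 20% and 22.7% of all genes. In AAV-GFP against saline none was called, with 2 higher and 5 lower at an unadjusted p under 0.05 and a median of −0.24. All AAV-GFP libraries lay below all saline libraries for 11 of the 26 and above them for 2, beside 12.4% and 14.7% of all genes. Between the vectors, 2 rose in AAV-GFP-MBNL1∆ and 1 fell, with a median of 0.05. Of all genes tested, 21.1% were called there, 10.8% higher and 10.3% lower. Nr2f2, a transcription factor of venous endothelium, rose from 23 to 32.1 CPM (a log2 difference of 0.49, SE 0.13, adjusted p = 0.0372), with saline at 27.5 CPM. Gpihbp1, which carries lipoprotein lipase onto the capillary wall, rose from 15.2 to 19.2 CPM (0.33, SE 0.10, adjusted p = 0.0431), with saline at 19.5 CPM. For Gpihbp1 all AAV-GFP libraries (13.6 to 16.5 CPM) lay below all saline libraries (19.2 to 19.9 CPM), and saline and AAV-GFP-MBNL1∆ overlapped. Icam2, a constitutive endothelial ligand of leukocyte integrins, fell from 6.25 to 4.69 CPM (−0.41, SE 0.12, adjusted p = 0.0402), with saline at 5.89 CPM. Dll4, the Notch ligand of arterial and tip cells, was at 11.4 CPM in saline and 6.86 CPM in AAV-GFP-MBNL1∆ and did not pass (−0.73, SE 0.21, adjusted p = 0.0602).

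Of 8 genes for ligands of endothelial receptors, 7 were tested. Vegfc, a growth factor for lymphatic and blood endothelium, fell from 5.41 to 3.13 CPM in AAV-GFP-MBNL1∆ against saline (a log2 difference of −0.79, SE 0.19, adjusted p = 0.0337). Pgf, the placental growth factor, rose from 1.58 to 2.97 CPM (0.90, SE 0.22, adjusted p = 0.039) and also rose against AAV-GFP (1.25, SE 0.23, adjusted p = 0.00987). Angpt1, which activates TIE2, was at 42 CPM in saline and 30.5 CPM in AAV-GFP-MBNL1∆ (−0.46, SE 0.17, adjusted p = 0.12). No ligand was called in AAV-GFP against saline, by edgeR or at an unadjusted p under 0.05, and the median of the 7 was −0.27. Of all genes tested, edgeR called 0% there, 9.37% in AAV-GFP-MBNL1∆ against saline and 21.1% between the vectors.

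The adhesion genes showed another pattern, and none passed the test. Vcam1 and Icam1 were highest in the AAV-GFP libraries richest in leukocyte transcripts, and Selp was highest in AAV-GFP-MBNL1∆ 1. Vcam1 codes for VCAM-1, which binds the integrin α4β1 on lymphocytes and monocytes and is induced on activated endothelium (chromosome 3, 116109949 to 116129688, minus strand). It was at 6.02, 4.91 and 5.96 CPM in saline, 17.8, 38.6 and 7.15 CPM in AAV-GFP, and 10.6, 8.37 and 5.98 CPM in AAV-GFP-MBNL1∆. All AAV-GFP libraries lay above all saline libraries, AAV-GFP 2 by the most and AAV-GFP 3 by the least, and AAV-GFP-MBNL1∆ overlapped both groups. Icam1 codes for ICAM-1, the ligand of the integrins LFA-1 and Mac-1 (chromosome 9, 21015985 to 21028817, plus strand). It was at 5.76, 6.45 and 7.68 CPM in saline, 20.7, 46.6 and 9.61 CPM in AAV-GFP, and 15.3, 7.42 and 6.56 CPM in AAV-GFP-MBNL1∆. The order of the AAV-GFP libraries was that of Vcam1, and in AAV-GFP-MBNL1∆ only replicate 1 lay above the saline range.

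Against saline, the AAV-GFP group stood at a log2 difference of 1.91 for Vcam1 (SE 0.53, adjusted p = 0.11) and 1.95 for Icam1 (SE 0.55, adjusted p = 0.118), folds of 3.77 (95% interval 1.64 to 8.69) and 3.87 (1.6 to 9.33). Neither passed with edgeR or limma-voom. Both passed with DESeq2 (adjusted p = 0.00133 and 0.00176), which called 8.74% of all genes higher, and, with edgeR, without AAV-GFP 3 (0.00242 and 0.00683), where 15.3% were called higher. Without AAV-GFP 2 the differences were 1.13 and 1.17 (adjusted p = 0.256 and 0.327). All 3 adhesion genes lay above saline in every AAV-GFP library, beside 14.7% of all genes tested (27.1% in either direction), and 2 of 3 had an unadjusted p under 0.05. For AAV-GFP-MBNL1∆ the differences from saline were 0.56 for Vcam1 (interval −0.62 to 1.74, adjusted p = 0.541) and 0.56 for Icam1 (−0.69 to 1.80, adjusted p = 0.566), or 0.08 for Icam1 without AAV-GFP-MBNL1∆ 1. Between the vectors, Vcam1 differed by −1.35 (SE 0.52, adjusted p = 0.0894) and Icam1 by −1.40 (SE 0.54, adjusted p = 0.0946). Those 2 differences passed with DESeq2 (0.0202 and 0.021, with 16.2% of all genes called lower) and without AAV-GFP 3 (0.00565 and 0.0127, with 22.4% called lower), and were −0.58 and −0.63 without AAV-GFP 2.

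**Figure D3:**
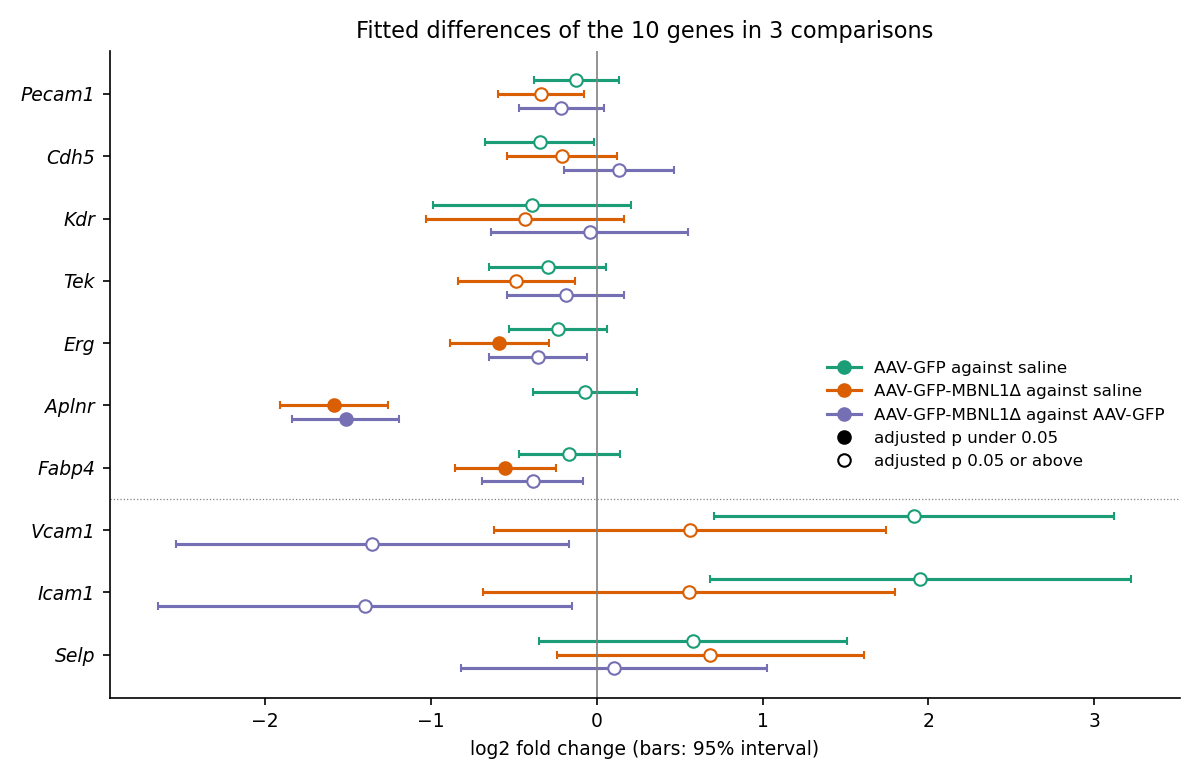
Fitted log2 fold change (x axis) of the 10 genes (y axis, identity genes above the dotted line and adhesion genes below it) in 3 comparisons, with 95% intervals; filled circles have an adjusted p under 0.05. The filled circles are Aplnr at −1.58 and −1.51, Erg at −0.59 and Fabp4 at −0.55, and the intervals of Vcam1, Icam1 and Selp are the widest.

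Leukocytes also make some of these proteins, and the common leukocyte antigen Ptprc stood at 11.7, 31.8 and 2.68 times its saline mean in AAV-GFP 1, 2 and 3. The corresponding values were 3.16, 6.86 and 1.27 for Vcam1, 3.11, 7.02 and 1.45 for Icam1, and 1.01, 0.806 and 0.938 for Pecam1. Vcam1 and Icam1 had the order of Ptprc over the 3 libraries, at smaller ratios. Pecam1, which leukocytes also make, stood at 115 CPM in saline, where Ptprc stood at 3.88 CPM. Of the 10 leukocyte markers, 8 were tested and all 8 were higher in every AAV-GFP library than in any saline library. This held for 14.7% of all genes tested, and 27.1% had groups that did not overlap in either direction. For 7 of the 8, every AAV-GFP-MBNL1∆ library was also higher than any saline library, beside 22.7% of all genes (42.7% in either direction). In that comparison 1 of the 8 was called higher, beside 4.76% of all genes. Itgam was listed at 0 in all 9 libraries, and 68.7% of its exon bases are shared with another gene on the same strand, while Ly6g was at 0 in saline and at most 0.0374 CPM elsewhere. The part of leukocyte RNA in the values of Vcam1 and Icam1 was not tested.

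**Figure D4:**
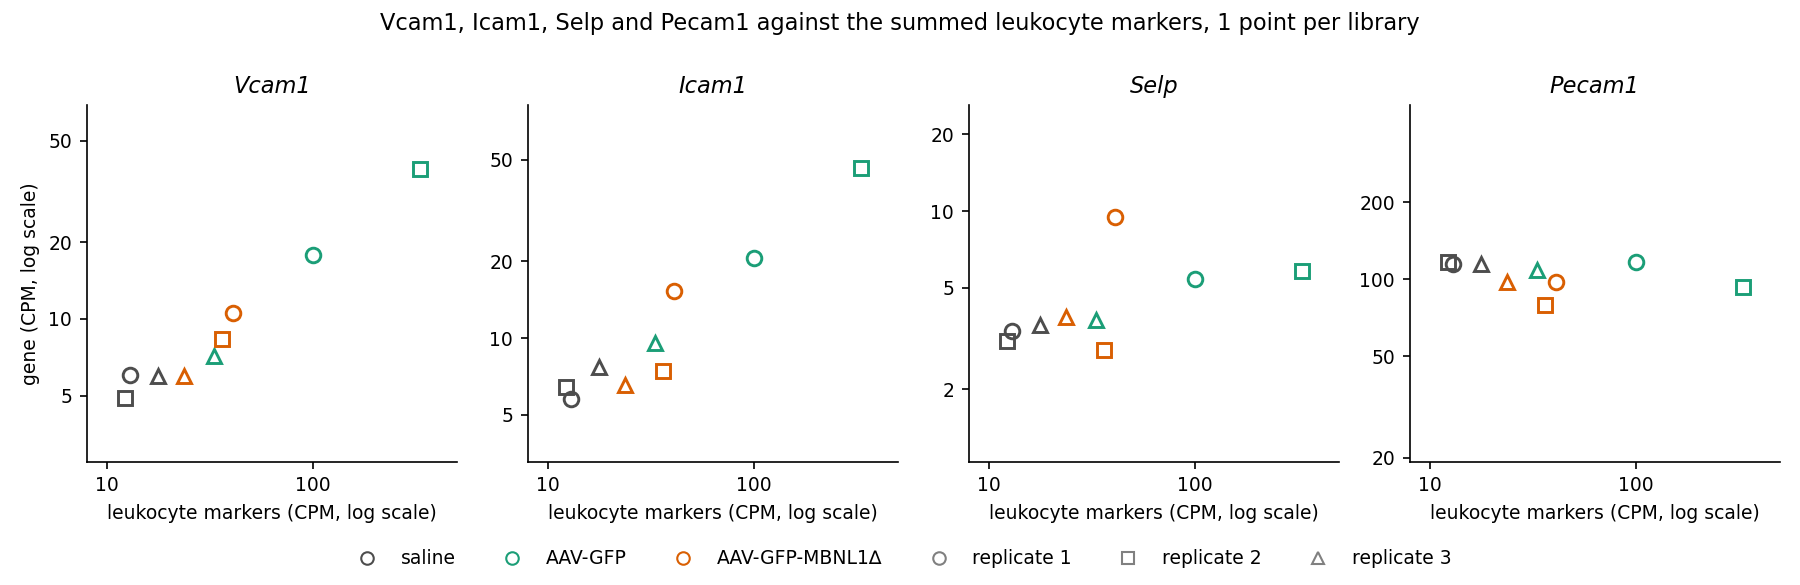
CPM of Vcam1, Icam1, Selp and Pecam1 (y axes, log scale, each spanning the same ratio) against the summed CPM of 10 leukocyte markers (x axis, log scale), 1 point per library. Vcam1 and Icam1 are highest where the markers are highest, in AAV-GFP 2 at 330.2 CPM of markers, Pecam1 stays between 79.2 and 117 CPM, and Selp is highest in AAV-GFP-MBNL1∆ 1.

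The leukocyte side of the contact showed the same order of libraries. Of 10 counter-receptor genes, which code for the integrins and the selectin ligands that bind these proteins, 9 were tested. In AAV-GFP against saline 7 of the 9 had groups that did not overlap and none was called by edgeR, with 8 higher at an unadjusted p under 0.05 and a median of 3.97. Of all genes tested, 27.1% had groups that did not overlap there, 14.7% of them in the higher direction as a share of all genes, and 0% were called. Itgal and Itgb2, the chains of LFA-1, were at 23.1 and 55.3 CPM in AAV-GFP against 0.752 and 3.54 CPM in saline (adjusted p = 0.0841 for each). Itgax and Spn were at 10 and 13.9 CPM against 0.524 and 0.332 CPM (adjusted p = 0.0841 for each). In AAV-GFP-MBNL1∆ against saline none was called, beside 9.37% of all genes tested, with 4 higher at an unadjusted p under 0.05 and a median of 1.49. The groups did not overlap for 7 of the 9 there either, all with AAV-GFP-MBNL1∆ higher, beside 22.7% of all genes (42.7% in either direction). Between the vectors Itgax fell by 2.52 (SE 0.65, adjusted p = 0.0332) and Itgb7, named to complete this count, fell by 2.05 (SE 0.62, adjusted p = 0.049). There 10.3% of all genes tested were called lower. The 2 groups overlapped for Itgb7, with AAV-GFP 3 at 3.85 CPM and AAV-GFP-MBNL1∆ 2 at 3.91 CPM, and did not overlap for Itgax.

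Cytokines that induce adhesion molecules on endothelium were scarce. Tnf averaged 0.318 CPM in saline muscle, 1.99 CPM with AAV-GFP and 0.454 CPM with AAV-GFP-MBNL1∆. Il1b was at 0.105, 3.26 and 0.389 CPM in the same groups and Ifng at 0.0147, 0.821 and 0.134 CPM. The adjusted p for AAV-GFP against saline were 0.0936, 0.0841 and 0.0841. Of 8 such genes 4 were tested, none was called against saline in either vector group, and 3 were higher at an unadjusted p under 0.05 in AAV-GFP. Against saline, edgeR called 0% of all genes tested for AAV-GFP and 9.37% for AAV-GFP-MBNL1∆. Il1b fell by 3.08 between AAV-GFP and AAV-GFP-MBNL1∆ (SE 0.89, adjusted p = 0.0435), where 10.3% of all genes tested were called lower. The 2 groups overlapped for Il1b. It was at 2.36, 7.03 and 0.398 CPM in AAV-GFP 1, 2 and 3, and at 0.451, 0.491 and 0.225 CPM in AAV-GFP-MBNL1∆ 1, 2 and 3.

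Selp, for P-selectin, is stored in endothelial granules and in platelets and is the first contact of rolling leukocytes (chromosome 1, 164115264 to 164150026, plus strand). It was at 3.39, 3.09 and 3.58 CPM in saline, 5.44, 5.83 and 3.74 CPM in AAV-GFP, and 9.47, 2.86 and 3.84 CPM in AAV-GFP-MBNL1∆. AAV-GFP lay above saline, and in AAV-GFP-MBNL1∆ replicate 1 held the highest value of all 9 libraries and replicate 2 the lowest. The differences from saline were 0.58 for AAV-GFP (interval −0.35 to 1.51, adjusted p = 0.398) and 0.69 for AAV-GFP-MBNL1∆ (interval −0.24 to 1.61, adjusted p = 0.33). Without AAV-GFP-MBNL1∆ 1 the latter was −0.0012 (adjusted p = 0.999).

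The other endothelial selectin, Sele, named after its values were seen, also peaked in AAV-GFP-MBNL1∆ 1, at 2.47 CPM against 0.364 and 0.434 CPM in replicates 2 and 3 and 0.173 to 0.312 CPM in saline. Its difference from saline there did not pass (log2 2.19, SE 0.76, adjusted p = 0.111). Platelet markers were low, with a sum of 4.79 to 5.55 CPM in saline. The sums were 5.55 to 10.4 in AAV-GFP and 6.11 to 7.04 in AAV-GFP-MBNL1∆, and Gp1bb, of which 92.9% of exon bases are shared with another gene, was at 0 in 8 libraries. The sum was highest in AAV-GFP 2, as were Pf4, at 8.09 CPM against 4.08 in AAV-GFP-MBNL1∆ 1, and Itga2b, at 1.93 against 1.71 CPM. The scarcer Ppbp, Gp9 and Gp6 were highest in AAV-GFP-MBNL1∆ 1, at 66, 9 and 8 counts. The part of platelets in the Selp value of that library was not tested. The profiles closest to that of Selp were Scn3b and P2rx1, at 0.235 and 0.279, farther than for any other of the 10 genes. Those closest to Vcam1 were Runx1, a transcription factor of blood cells, and Tmem176b, at 0.106 and 0.126, and those closest to Icam1 were Runx1 and Rgs16, at 0.175 and 0.178.

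Other molecules of adhesion and passage through the vessel wall gave 9 tested genes of 11, none called against saline in either vector group, with 1 higher and 2 lower at an unadjusted p under 0.05 for AAV-GFP and 2 higher and 4 lower for AAV-GFP-MBNL1∆. Of all genes tested, edgeR called 0% and 9.37% in these 2 comparisons. Between the vectors it called 10.8% of all genes higher and 10.3% lower, and 1 and 3 of the 9. The 3 lower were Alcam, Cd34 and Icam2. Icam2 is also on the list of other endothelial genes, so its call is counted in both lists. Alcam, which binds CD6 on T cells, averaged 2.06 CPM in saline muscle, 10.5 CPM with AAV-GFP and 2.33 CPM with AAV-GFP-MBNL1∆, and fell by 2.18 between the vectors (SE 0.59, adjusted p = 0.0371). Its AAV-GFP libraries 1, 2 and 3 were far apart, at 7.18, 21 and 3.34 CPM. Cd34, a sialomucin of capillary endothelium and of progenitor cells, fell from 105 to 75.8 CPM between the vectors (−0.47, SE 0.13, adjusted p = 0.0364), with saline at 96.6 CPM. Cd99l2, which acts in the passage of leukocytes through the wall, rose from 84.9 to 126 CPM (0.57, SE 0.12, adjusted p = 0.0147), with saline at 104 CPM. Jam2 was at 65.7 CPM in saline and 44.4 CPM in AAV-GFP-MBNL1∆ (−0.57, SE 0.16, adjusted p = 0.0581).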

How the data were processed

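The deposited values are raw counts of reads per gene, 1 table per library, which the authors made from an mRNA library of 250 ng RNA per sample, per the labels' protocols. Per the submitters' processing notes, cutadapt 2.10, STAR 2.7.5a, HTSeq 0.12.4 and DESeq2 1.30.0 were used with mm10. Neither the annotation release nor the counter's strand setting is given there. Rows that name no gene held 16.8% to 18.3% of reads and were left out. GENCODE M21 names matched 55141 of 55401 identifiers.

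Of 30602 genes with a count, 18514 passed edgeR's filter. A single fit of all 9 libraries used edgeR 4.0.16 under R 4.3.3 (TMM scaling, robust quasi-likelihood F test, 1 mean per group). Adjusted p-values follow Benjamini and Hochberg over all tested genes of a comparison, and a call is an adjusted p under 0.05. Standard errors are the log2 fold change over the square root of F, and 95% intervals use the test's own degrees of freedom. The procedure was tested on simulated data. Icam1, Selp and Vcam1 share 511, 624 and 61 exon bases with antisense genes, which held at most 6 counts in any library.

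The members and lists were chosen with earlier results of these data known. All 10 members are described. Up to 4 genes per list are named by smallest p-value, called genes where a count is 5 or fewer, and 2 tested protein-coding genes of closest profile per member. Alternatives were DESeq2's size factors, DESeq2 1.42.0, limma-voom (limma 3.58.1), no filter or 1 CPM in 3 libraries, a fit of 2 groups only, a replicate block, scaling without mitochondrial genes and the 10 top genes, and each library left out in turn.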

Additional observations from a re-analysis of the deposited data

How the results depend on the processing

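The number of the 10 genes called was 0 for AAV-GFP against saline, 3 for AAV-GFP-MBNL1∆ against saline and 1 for AAV-GFP-MBNL1∆ against AAV-GFP. DESeq2 called 2 in the first (Vcam1 and Icam1) and 4 in the last (with Aplnr and Fabp4), where it called 9.21% and 30.6% of all genes. A filter of 1 CPM in 3 libraries called 2 in the last (26.5% of all genes), and a fit of only the 2 groups compared called 5 in the second (with Pecam1 and Tek, 25.7% of all genes). Leaving out 1 library gave 0 to 2, 1 to 5 and 1 to 4. The second count was 1 without any 1 saline library or AAV-GFP-MBNL1∆ 1 or 3 (Aplnr each time) and 5 without AAV-GFP 2 (21.7% of all genes). With the replicate number as a block the counts were 0, 2 and 1. Same-numbered libraries correlated over 0.1 in 2 of 9 pairs, so the numbers were not taken as pairs. Of 510 refits of a single gene and comparison, 467 kept direction and call. Directions turned for Selp between the vectors with limma-voom (−0.076) and the block (−0.018), and for Kdr with the block (0.0044). With 1 library left out, the range crossed 0 for Selp between the vectors (−0.58 to 0.41) and against saline (−0.0012 to 0.99 in AAV-GFP-MBNL1∆), for Kdr (−0.29 to 0.15) and Cdh5 (−0.0048 to 0.25) between the vectors, and for Aplnr in AAV-GFP against saline (−0.17 to 0.0039). None of these was a call. Over all genes the calls moved more: 0 to 3262, 500 to 4584 and 826 to 6649 in the 3 comparisons, beside 0, 1734 and 3914. The cause was not tested. Counts per gene were 157 or more for each of the 10 in every library, and counting error is part of the spread given.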
